A study of Rattus norvegicus with 12 samples.

Results

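Lung endothelial cells (ECs) isolated from wild-type Sprague-Dawley rats were compared with total lung of wild-type Sprague-Dawley rats, both in normoxia. RNA of 3 EC libraries and 3 total lung libraries was sequenced. The comparison took every row of the deposited gene table whose signal averaged 1 or more across these 6 libraries, which were 15186 of 19230 rows. The lowest mean among the rows taken was 1.00 and the highest among the 4044 rows left out was 0.999. The total lung libraries are labelled day 0. The EC libraries are labelled day 4 although their column names give 0, so the day of the ECs is uncertain. The same table holds 6 lung libraries from day 4 of SuHx (the VEGF receptor inhibitor SU5416 with hypoxia), 3 wild-type and 3 labelled Ahr-KO, and these are given below only as a further range of lung values. All of these rats were Sprague-Dawley.

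Endothelial cells line blood and lymph vessels. In the lung they form the capillary side of the air-blood barrier, control vessel tone through endothelin and nitric oxide, keep blood from clotting and, when activated by cytokines, display selectins and adhesion molecules that capture leukocytes. Total lung holds endothelium too, together with alveolar and airway epithelium, fibroblasts, smooth muscle, macrophages, lymphocytes and blood, so an endothelial gene can be measured in both groups. The labels do not say how the ECs were isolated, for how long they were handled or whether they were cultured. The identity of the cells and the effect of preparing them therefore cannot be told apart in this comparison. In RNA from mixed cells, fewer cells of a type and less RNA per cell also cannot be told apart.

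The unit of the table is a signal, an estimated read count divided by 1 factor per library. The EC libraries held about 20040000 to 22450000 reads and the total lung libraries about 26850000 to 27630000. Differences are EC minus total lung on the scale log2(signal + 1), given with their standard error, and 3 libraries stand behind each group. A row was called where the p of limma's moderated test, adjusted by Benjamini-Hochberg across all 15186 rows, was under 0.05. On a principal component analysis the leading axis (77.2% of the variance) separated the ECs (-91.3 to -79.4) from the lungs (84.7 to 89.95), and the second, with 8.33%, set EC library 2 (-39.6) and lung library 2 (-37.2) apart from the other 4 (2.57 to 32.9). Lung library 2 had 0.0596% of its signal in the cardiac muscle marker list, against 0.00616% and 0.00470% in lung libraries 0 and 1 and 0.00181% to 0.00213% in the ECs. EC library 2 had less signal in the alveolar type 2 marker list (0.596%) than EC libraries 0 and 1 (1.31% and 1.60%). The labels do not say whether the replicates are different animals, so every p-value rests on the spread among these libraries alone.

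Of the 15186 rows, 8539 were called (56.2%): 3969 were higher in ECs (26.1%) and 4570 lower (30.1%). Scaling each library to the same total moved the median difference of all rows from -0.05 to -0.29 and the split to 2816 higher and 6016 lower, so calls near 0 depend on the scaling. At a fold of at least 4 the counts were 560 higher and 1230 lower, and at a fold of at least 64 they were 14 higher and 29 lower. In 4616 rows (30.4%) every EC library lay above every lung library, and in 5335 (35.1%) every EC library lay below. The counts of called list members below are to be read beside the 26.1% and 30.1% of all rows.

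**Figure D1:**
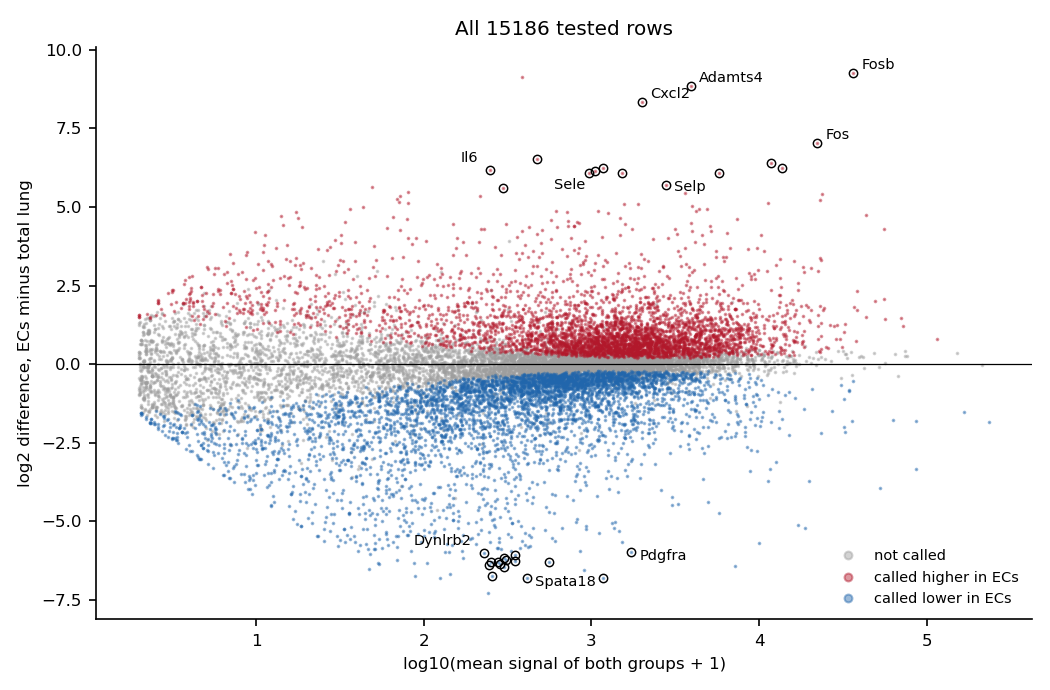
Difference of each of the 15186 tested rows (EC minus total lung, log2 scale) against its mean signal over both groups (log10 scale), with called rows coloured. Circles mark the 15 largest named changes in each direction, led by Fosb at 9.26 above and by Spata18 and Slc7a10 at -6.79 below.

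The 15 largest rises among named genes whose EC mean was 50 or more, with no lung library at 0, were led by response genes and not by the classical endothelial markers. Of these 15, 5 belong to the immediate early list, 3 to the NF-kappaB and cytokine list and 2 to the leukocyte adhesion list, while none is in the pan-endothelial list. Fosb, a subunit of the transcription factor AP-1, had signals of 92469, 83772 and 42263 in the ECs and 131, 91.2 and 115 in the lungs. The lowest EC library lay far above the highest lung library, and the difference was 9.26 ± 0.30 (adjusted p = 6.49e-06). Adamts4, which encodes a secreted protease that cleaves proteoglycans, gave 5203, 11010.4 and 7252 against 21.5, 2.56 and 52.9, a difference of 8.84 ± 0.90. Apold1, an early response gene of endothelial cells, gave 8397, 14289 and 11210.5 against 128, 205 and 164 (6.08 ± 0.23). Cd300lg, an endothelial receptor-like protein, gave 869, 923 and 1008 against 4.77, 17 and 9.20 (6.51 ± 0.40). The rest of the 15 were Cxcl2, Fos, Atf3, Nr4a3, Egr1, Il6, Sele, Cxcl10 and Selp, described with their groups below, the metallothionein gene Mt2A (6.10), and Ctla4, an inhibitory receptor of T cells (5.61). Absence of overlap between EC and lung libraries was a condition for entry to the 15 and is not a result.

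The 15 largest falls by the same rule included Ubxn10, Tcte1, Ccdc153, Spag6, Cfap46 and Dynlrb2, of which Dynlrb2 is in the ciliated cell list. Spata18 had the widest difference of the 15, with 10.2, 4.82 and 4.99 in the ECs and 971, 779 and 706 in the lungs (-6.79 ± 0.31). Ccdc153 gave 7.97, 12.1 and 4.99 in the ECs and 716, 644 and 699 in the lungs, and Dynlrb2, a dynein light chain, gave 4.55, 7.23 and 6.24 against 492, 371 and 491. Slc7a10, an amino acid transporter, had 27.6, 17.6 and 16.1 against 2558, 2238 and 2131 (-6.79 ± 0.22). Pdgfra, the PDGF receptor that marks lung fibroblasts, had 49, 57.8 and 48.7 against 4305, 2395 and 3505 (-5.97 ± 0.22). The alpha-1A adrenergic receptor gene Adra1a had a difference of -6.46, and P2rx6, Spin2a, Lrrn3, Chodl and Lrp3 had differences of -6.37 to -6.16. Among genes listed at 0 in all 3 EC libraries, the highest mean signals in total lung were those of Vom1r50 (183, 135 and 3.07), Elmod1 (112, 72.4 and 93.6), Npy, which encodes neuropeptide Y (127, 81.8 and 0.767), Ppp1r3a (98.6, 33.2 and 47.5) and Camk1g (55.7, 41.8 and 48.3). Lung library 2 stood far below the other lungs for Vom1r50 and Npy, and Npy was not called when any single library other than lung library 2 was left out (adjusted p = 0.0653 to 0.102).

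Endothelial identity genes, which check the label of the EC libraries, rose together. Of the 23 tested pan-endothelial markers, 21 were higher in ECs and 0 lower, with a median difference of 1.74 beside -0.05 over all rows. In all 21 the ECs also lay above the 9 lung libraries of the whole table, which was true of 24.3% of all rows. The summed signal of the list took 2.27% to 2.39% of an EC library and 0.84% to 0.937% of a lung library. Tm4sf1, a tetraspanin-like membrane protein of endothelium, had the largest rise of the list, with 2554, 4535 and 3084 in the ECs and 459.8, 244 and 505 in the lungs (3.10 ± 0.31, adjusted p = 2.24e-04). Nos3, endothelial nitric oxide synthase, gave 2853, 3698 and 2669 against 437, 781 and 579 (2.38 ± 0.22). S1pr1, the sphingosine-1-phosphate receptor that tightens the endothelial barrier, rose 5.09-fold, Cd93 5.01-fold and Mmrn2, an extracellular matrix protein that binds Cd93, 4.17-fold. None of these 5 overlapped between groups. Cdh5, VE-cadherin, the adhesion molecule of endothelial junctions, gave 61772, 60686 and 48423 against 17516, 14011 and 17317, a 3.50-fold rise. The members not called were Cd34, a sialomucin of endothelium and progenitors (4025, 4133 and 4367 in the ECs, 4519, 3115 and 4492 in the lungs, 0.07 ± 0.15, and -0.11 without lung library 1), and Robo4, which had 1 EC library at 124 and the others at 5.69 and 3.74.

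**Figure D2:**
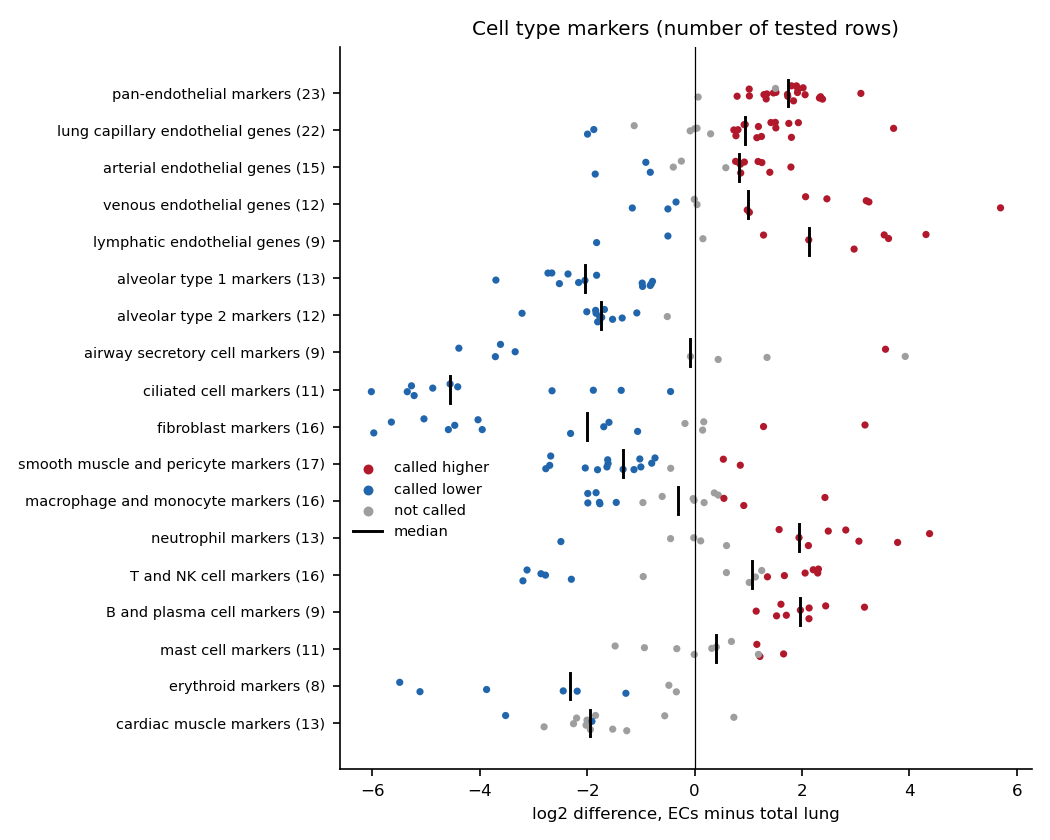
Difference (EC minus total lung, log2 scale) of each tested marker gene, 1 point per gene, by cell type list, with the median of the list as a bar. The pan-endothelial median lies at 1.74 and the ciliated cell median at -4.55.

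Genes of each kind of vessel were among those called higher. Capillary genes had 15 of 22 higher and 2 lower (68.2% and 9.09%, median 0.93), beside 26.1% and 30.1% of all rows. The number higher was 12 once libraries were scaled to the same total. Their largest rise was that of Edn1, endothelin-1, and Ednrb, the endothelin receptor of aerocytes, the capillary cells that span the alveolus, gave 24249, 25565 and 22567 against 5728, 6550.0 and 6690.4 (1.93 ± 0.11). Prx (1.80), Glp1r (1.76) and Ace, angiotensin-converting enzyme (1.51), were higher as well. Cyp4b1 had 4130.2, 3494 and 2335 against 17575, 12433 and 9732 and was lower (-1.99 ± 0.27), as was Fibin (-1.88). Of 15 arterial genes, 9 were higher and 3 lower (60% and 20%, median 0.84), and 7 and 4 with libraries scaled to the same total. The summed signal of the arterial list overlapped between groups, at 0.247% to 0.286% in the ECs and 0.207% to 0.350% in the lungs. The connexin gene Gja4 rose 3.47-fold, the transcription factor gene Sox17 2.64-fold and Dll4 2.38-fold. Mgp, matrix Gla protein, with 5208, 5393 and 4759 against 18758, 20095 and 16598, Cxcl12 and Fbln5 fell. The connexin gene Gja5 gave 1419.8, 1292 and 1657 against 1934, 1549 and 2311 and was not called, though it was called lower without lung library 1 (-0.54, adjusted p = 0.0194).

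Among venous genes, 7 of 12 rose (58.3%, median 1.00) and 3 fell (25%), beside 26.1% and 30.1% of all rows. The number that fell was 1 without EC library 0 or EC library 1. Selp, P-selectin, which captures rolling leukocytes, had 3025, 5865 and 7413 in the ECs and 173, 40.1 and 130.4 in the lungs (5.70 ± 0.56). Ackr1, the chemokine receptor of venules, had 626, 1387 and 1174 against 98.6, 95.5 and 123 (3.25 ± 0.30), and Slc6a2, the noradrenaline transporter, 8622, 11697 and 5233 against 693, 1005 and 979 (3.20 ± 0.29). Nr2f2, the transcription factor of venous fate, was lower (-1.16 ± 0.16), with 808, 648 and 659 against 1562, 1284 and 1921. Lymphatic genes had the highest median of the vessel lists, 2.13, with 6 of 9 higher and 2 lower (66.7% and 22.2%). Reln, reelin, gave 3226, 3446 and 3233 in the ECs and 173, 163 and 161 in the lungs, with the ECs 19.8-fold higher (adjusted p = 1.98e-06). Mmrn1 rose 12.2-fold, Prox1, the transcription factor that sets lymphatic fate, 11.6-fold, the chemokine gene Ccl21 7.84-fold and Flt4, the receptor for VEGF-C, 4.37-fold. Pdpn, podoplanin, which is also a marker of alveolar type 1 cells, was lower (-1.82 ± 0.23). The shares of capillary, arterial, venous and lymphatic cells were not estimated.

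Of 26 endothelial transcription factor genes, 21 rose and 4 fell (median 1.16). Klf4 and Klf2, zinc finger factors that are raised by laminar flow, led: Klf4 had 34612, 25402 and 28131 in the ECs and 2792, 2788 and 3389 in the lungs (3.29 ± 0.15), and Klf2 15964, 8573 and 16249 against 2072, 2380.5 and 2339 (2.53 ± 0.24). Foxc1, Sox7 and the ETS factor Fli1 were higher by 2.39, 2.24 and 1.87. Meox2, a homeobox gene of vascular and mesenchymal cells, had 23.9, 24.1 and 32.5 against 688, 405 and 708 and was 21.2-fold lower. Its relative Meox1, counted with the fibroblast markers, moved the other way, with 206, 164 and 271 against 28.6, 16.2 and 23.8 (3.17 ± 0.30). Mecom (-1.45) and Gata6 (-0.96) were also lower. Of the shear-responsive genes, 6 of 11 were higher (54.5%) and 3 lower (27.3%), beside 26.1% and 30.1% of all rows. Those higher included Thbd, thrombomodulin, with 81058, 99595 and 87116 against 19114, 22888 and 21697, and Hmox1, heme oxygenase-1 (1.31). Nqo1 (-1.11) and Cyp1b1 (-0.98) were among the lower.

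Markers of other lung cells were mostly lower in the ECs but were not absent. All 13 tested alveolar type 1 markers fell (median -2.04), among them Ager, the receptor for advanced glycation end products, with 15857, 8600.3 and 12099 in the ECs and 55100.1, 59217 and 45040.4 in the lungs (-2.16 ± 0.24), and Aqp5 (-2.36). Of 12 alveolar type 2 markers, 11 fell and none rose (median -1.75). Sftpc, surfactant protein C, still had 103787, 118532 and 46859 in the ECs, against 201197, 311307 and 220058 in the lungs (-1.53 ± 0.42, adjusted p = 0.0176). Ciliated cell markers fell in all 11 rows, by a median of -4.55: Foxj1, the transcription factor of motile cilia, had 27.3, 28.9 and 13.7 against 826, 823 and 949. Of the airway secretory markers 4 of 9 fell and 1 rose (44.4% and 11.1%, beside 30.1% and 26.1% of all rows), with a median of -0.08. Among those that fell, Scgb1a1, the club cell secretory protein, had 15424, 26522 and 8872 against 148299, 153879 and 165179. Scgb3a1 and Bpifa1 were high in lung library 2 alone among the lungs (1714 and 1231) and were not called. Without that library both were called higher in the ECs, by 3.27 and 7.20.

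Mesenchymal genes gave some of the widest gaps. Of 16 fibroblast markers, 11 fell and 2 rose (median -2.0). Col13a1 had 77.4, 55.4 and 46.2 in the ECs and 3006, 2622 and 3319 in the lungs, and the transcription factor gene Tcf21 75.1, 67.5 and 88.6 against 2286, 2597 and 2791. With Pdgfra these were 32.9-fold to 62.8-fold lower, without overlap, which for Pdgfra was a condition for entry to the largest falls. The 2 that rose were Meox1 and Thy1 (1.28 ± 0.45). Thy1 lost its call when any EC library was left out (adjusted p = 0.0788 to 0.108) and with equal totals (1.05). Of 17 smooth muscle and pericyte markers, 14 fell (median -1.33), led by the pericyte genes Higd1b (-2.77) and Cox4i2 (-2.70), while Rgs5 rose (0.85 ± 0.14). Acta2, smooth muscle actin, gave 2746, 2910.2 and 3723 against 4340.5, 2815 and 6134 and was not called (-0.44 ± 0.27), but was called lower without lung library 1 (-0.74). Of 27 interstitial matrix genes 22 fell and 1, Vcan, versican, rose (0.83 ± 0.20), with 2 rising without lung library 0. Lum, lumican, had 10.2, 33.7 and 34.9 against 567, 540.4 and 629, and Dcn, decorin, 145, 139 and 169.7 against 1985, 2228 and 2916. Of the basement membrane genes 3 of 22 were higher and 8 lower (13.6% and 36.4%, beside 26.1% and 30.1% of all rows). Nid2 rose (0.81), and Nid1 (-1.48) and the laminin gene Lamb3 (-1.53) fell. The number of basement membrane genes that rose was 1 without EC library 1 and 5 without lung library 0.

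Blood cell markers moved in both directions. All 9 B and plasma cell markers were higher in the ECs (median 1.97): Pax5, the B cell transcription factor, gave 1456, 1745 and 1369 against 208, 87.8 and 260.0 (3.16 ± 0.37). Neutrophil markers had 8 of 13 higher (median 1.95), including the granule gene Ngp, with 837, 819 and 540.4 against 150.4, 21.3 and 41.4, Mmp9 (3.06) and Il1r2 (4.38). The T and NK cell list split. The T cell receptor genes Cd3d, Cd3e and Cd3g rose, with Cd3e at 626, 727 and 1555 against 163, 146 and 249 and highest in EC library 2. The cytotoxic genes Gzmk, Ccl5, Nkg7, Gzmb and Prf1 fell, with Nkg7 at 23.9, 53 and 93.6 against 431, 291 and 384 (-2.86 ± 0.46). Macrophage markers had 6 of 16 lower (37.5%) and 3 higher (18.75%), beside 30.1% and 26.1% of all rows (median -0.31). The falls were led by the complement genes C1qa (-1.76), C1qb (-1.77) and C1qc (-1.99), and the rises by Cd14 (2.43 ± 0.17). The number of macrophage markers that rose was 1 when EC library 0, EC library 1, lung library 0 or lung library 1 was left out. Erythroid markers fell in 6 of 8: Hbb, beta globin, had 886, 948 and 1007 in the ECs and 42541, 27670.1 and 29844 in the lungs (-5.11 ± 0.17). Markers of these other cell types were measured in the EC libraries, and their part in the differences below was not tested.

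**Figure D3:**
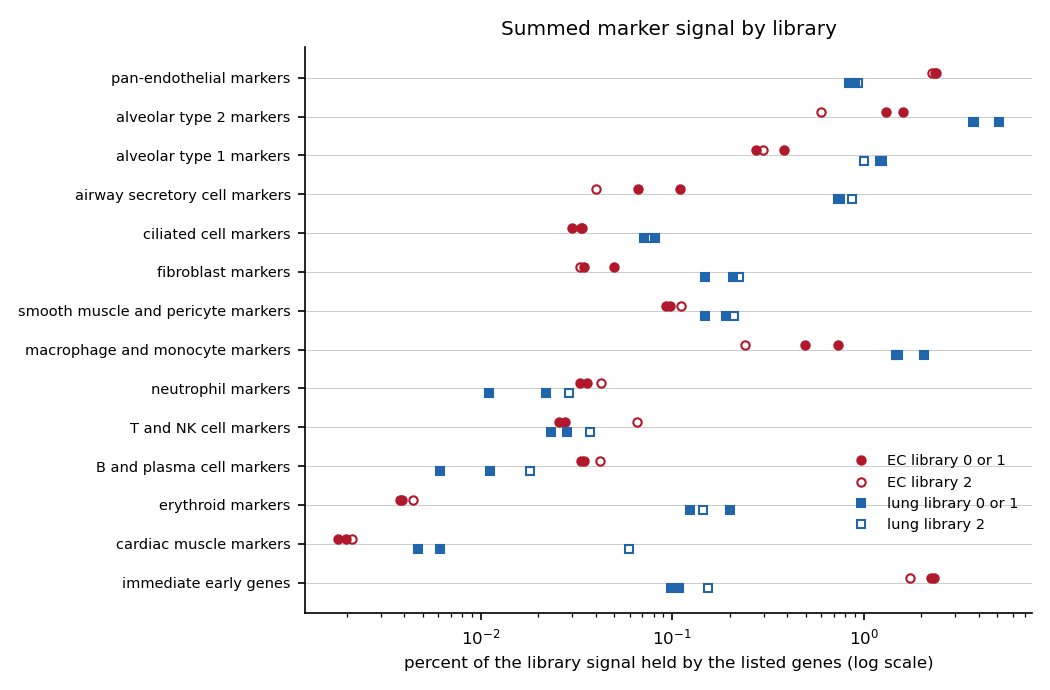
Percent of each library's signal (log scale) held by the genes of a list, 1 point per library, ECs as circles and total lung as squares, library 2 of each group open. The pan-endothelial list took 2.27% to 2.39% in the ECs and 0.84% to 0.937% in the lungs, and the immediate early list 1.75% to 2.34% against 0.0983% to 0.154%.

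The immediate early genes are a set of transcription factors and regulators that cells switch on within minutes of a stimulus, without new protein. All 19 tested members were higher in the ECs, by 1.90 to 9.26 (median 4.30), and in all of them every EC library lay above all 9 lung libraries of the table. The list took 1.75% to 2.34% of the EC signal and 0.0983% to 0.154% of the total lung signal. Fos had 49586, 49766 and 33227 in the ECs and 197, 256 and 697 in the lungs (7.05 ± 0.44), Egr1 29527, 35917 and 15273 against 379, 132 and 755 (6.23 ± 0.61), and Atf3, a stress-responsive repressor, 22730.1, 32609.5 and 14799 against 269.7, 287 and 225 (6.41 ± 0.27). Nr4a3, a nuclear orphan receptor, gave 2213, 2810.1 and 1887 against 37.4, 23.9 and 26.8 (6.25 ± 0.22). EC library 2 was the lowest EC library for each of Fosb, Fos, Atf3, Nr4a3 and Egr1. For these genes, lying above the normoxia lungs was a condition for entry to the largest rises and is not a result. The smallest rise of the list was that of Fosl1 (1.90 ± 0.16).

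NF-kappaB is a family of transcription factors held in the cytoplasm by inhibitors such as Nfkbia and released by cytokines and stress to switch on chemokines, adhesion molecules and its own inhibitors. Of 24 tested NF-kappaB and cytokine genes, 19 were higher in the ECs and none lower (median 3.27). Cxcl2, a neutrophil chemokine, gave 3705, 4168 and 4104 in the ECs and 11.9, 14.5 and 8.44 in the lungs (8.33 ± 0.21, adjusted p = 4.77e-06). Il6 had 293, 584 and 587 against 8.75, 3.41 and 5.37 (6.16 ± 0.41) and Cxcl10, a T cell chemokine, 1745, 5142 and 2091 against 55.7, 30.7 and 33 (6.08 ± 0.43). Of the inhibitors, Tnfaip3, the ubiquitin-editing enzyme A20, had 18956, 27329 and 19263 against 679, 527 and 654 (5.12 ± 0.17). Csf3, the gene of a granulocyte growth factor, was at 37.6, 54.2 and 195 in the ECs and at 0.796, 0.852 and 0 in the lungs. None of these 5 overlapped, which for Cxcl2, Il6 and Cxcl10 was a condition for entry to the 15 largest rises. Neutrophil markers took 0.0329% to 0.0424% of the EC signal and 0.0111% to 0.0288% of the lung signal, and B and plasma cell markers 0.0333% to 0.042% against 0.00611% to 0.0181%. No member of either list was at 0 in all EC libraries, and their part in the rise of the cytokine genes was not tested.

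Since the members of this list rose together, the 250 bases before their start sites were read from the RefSeq promoter table (build GRCr8, 1 window per symbol, 27457 symbols) and searched on both strands for GGGNNTTTCC, a form of the NF-kappaB site. It was present in 9 of the 19 members with a window (47.4%), against 1.28% of all windows and 1.78% of the 2860 windows of rows called higher. The list was drawn up as NF-kappaB genes, so this share is a description of it. The 9 were Cxcl1, Cxcl2, Il6, Nfkb2, Nfkbia, Nfkbiz, Rel, Tnfaip3 and Ccl20, of which the first 8 were called higher. Of all 24 tested members, with or without a match, 19 were called higher. Whether a match went with the rise was not tested. Ccl20 was not called (1.29 ± 0.50) except without EC library 0 (1.67) or lung library 2 (1.66). Further windows were searched in the same way. GAANNTTC, the repeat bound by heat shock factor, was in 8 of 12 heat shock genes, against 7.02% of all windows and 4.65% of those of rows called higher. Of these 8 genes 4 were called higher, beside 7 of all 14 tested members of the list, and Hspa1a had no match. The heat shock list was also drawn up as such genes, so its share is a description too. TGACGT, the core of the cyclic AMP response element, was in 6 of the 13 immediate early genes with a window. It was in 7.25% of all windows and 11.2% of those of rows called higher. Fosb had no match, and Fos, Atf3 and Nr4a3 had no window. The immediate early list was likewise drawn up as such genes, and its share is a description as well. TGACGT was also in 4 of 12 heat shock genes, 3 of 19 NF-kappaB and cytokine genes and 2 of 15 pan-endothelial markers. TGANTCA, a form of the AP-1 site, was in 0 of 13 immediate early genes, 2 of 12 heat shock genes, 4 of 19 NF-kappaB and cytokine genes and 1 of 15 pan-endothelial markers, against 6.36% of all windows. GGGNNTTTCC was in none of the immediate early, heat shock or pan-endothelial windows, and GAANNTTC was in 1 immediate early window and in none of the NF-kappaB and cytokine or pan-endothelial windows. A full TGACGTCA reads the same on both strands and counts as 2 overlapping matches, and no window had a GGGNNTTTCC and a GAANNTTC match that shared bases. A match is a description of these letters and not evidence of binding. The windows of Cxcl2, Tnfaip3, Nfkbia and Il6 are printed, 5′ to 3′ toward the start site, to show where the matches lie, with the matched bases in capitals.
Cxcl2 (chr14:17467256-17467505, minus strand): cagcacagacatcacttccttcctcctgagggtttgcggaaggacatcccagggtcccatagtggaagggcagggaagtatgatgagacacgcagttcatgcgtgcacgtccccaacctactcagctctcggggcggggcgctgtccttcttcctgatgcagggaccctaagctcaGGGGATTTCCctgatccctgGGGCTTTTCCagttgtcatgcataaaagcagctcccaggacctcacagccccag
Tnfaip3 (chr1:15543980-15544229, minus strand): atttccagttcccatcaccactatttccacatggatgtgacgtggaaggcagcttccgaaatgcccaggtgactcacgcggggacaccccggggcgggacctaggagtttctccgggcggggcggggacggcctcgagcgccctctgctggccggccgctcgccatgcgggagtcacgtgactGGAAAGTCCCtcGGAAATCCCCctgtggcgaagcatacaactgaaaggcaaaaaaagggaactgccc
Nfkbia (chr6:78597073-78597322, minus strand): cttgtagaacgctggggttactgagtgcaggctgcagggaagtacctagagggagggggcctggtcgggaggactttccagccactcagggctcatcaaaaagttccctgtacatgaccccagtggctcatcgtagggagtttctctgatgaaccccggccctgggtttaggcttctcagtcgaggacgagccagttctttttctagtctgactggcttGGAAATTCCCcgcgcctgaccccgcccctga
Il6 (chr4:5894576-5894825, minus strand): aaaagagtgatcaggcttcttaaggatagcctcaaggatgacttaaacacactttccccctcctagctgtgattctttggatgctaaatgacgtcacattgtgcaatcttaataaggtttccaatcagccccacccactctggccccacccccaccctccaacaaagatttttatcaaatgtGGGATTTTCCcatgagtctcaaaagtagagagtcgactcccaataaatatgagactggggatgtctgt
Cxcl2 and Tnfaip3 each held a pair of adjacent matches, whose nearer member ended 44 and 45 bases before the start, and Nfkbia and Il6 held 1, at 21 and 58 bases. Nfkbia itself gave 25923, 37185 and 33981 in the ECs and 2572, 7500.3 and 2702 in the lungs (3.10 ± 0.40), with lung library 1 above the other lungs.

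Heat shock genes encode chaperones that refold damaged proteins. Of 14 tested members 7 rose and 1 fell (50% and 7.14%, median 0.91), beside 26.1% and 30.1% of all rows. The number that fell was 3 with equal totals and 0 without lung library 2. Every EC library lay above all 9 lung libraries of the table in 8 members and below all 9 in 3. The same held for 24.3% and 27.3% of all rows. The inducible HSP70 genes led, Hspa1b with 8432, 4268 and 8408 in the ECs and 119, 363 and 83.6 in the lungs (5.44 ± 0.54) and Hspa1a with 9846, 5011 and 9332 against 197, 537 and 166 (4.88 ± 0.46). These genes are near-identical copies, so reads may have been divided between them. In both, EC library 1 was the lowest of the ECs and lung library 1 the highest of the lungs, without overlap. Bag3 rose 5.48-fold, the small heat shock protein gene Hspb1 4.01-fold, Dnaja1 2.55-fold and Dnajb1 2.35-fold. The constitutive Hspa8 was not called (0.48 ± 0.29) but was called higher without lung library 1 (0.86), the highest lung library for Hspa1a and Hspa1b. Hsp90ab1 was not called (0.31 ± 0.15). The window of Hspb1 is printed because it holds a pair of GAANNTTC matches, in capitals, at 101 to 121 bases before the start.
Hspb1 (chr12:26432302-26432551, minus strand): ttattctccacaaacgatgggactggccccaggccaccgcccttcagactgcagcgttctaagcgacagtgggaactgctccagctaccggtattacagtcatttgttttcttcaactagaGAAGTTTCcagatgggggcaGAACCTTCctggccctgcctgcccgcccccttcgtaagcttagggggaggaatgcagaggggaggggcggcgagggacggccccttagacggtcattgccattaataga
The amino acid and stress genes controlled by ATF4 rose in 13 of 19 (median 1.12), among them Chac1, which degrades glutathione (3.49 ± 0.22), Mthfd2 (2.92) and Atf4 itself, with 20322, 23733 and 19309.5 against 5515, 5056 and 5552. Pycr1, a proline synthesis enzyme, fell (-2.36 ± 0.33).

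**Figure D4:**
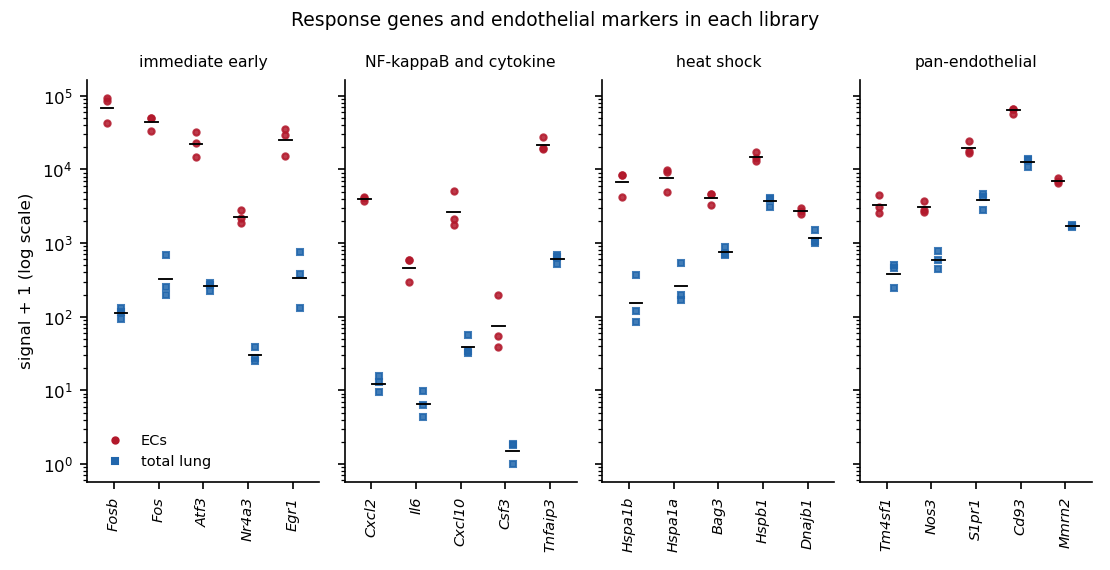
Signal + 1 (log scale) in each library, ECs as circles and total lung as squares, with the geometric mean of each group as a bar, for response genes and for pan-endothelial markers. Fosb (9.26) and Cxcl2 (8.33, log2 scale) are further apart than the endothelial markers Tm4sf1 (3.10) and Nos3 (2.38). The heat shock genes Bag3, Hspb1 and Dnajb1 had smaller differences than Tm4sf1.

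Leukocyte adhesion genes rose in 10 of 16 (median 1.57). Sele, E-selectin, which endothelium makes when activated, had 929, 2382 and 2916 in the ECs and 60.5, 12.8 and 19.9 in the lungs (6.16 ± 0.62). Vcam1, the ligand of leukocyte integrins, had 5216, 13200.0 and 8019 against 1674, 1280.2 and 1529 (2.46 ± 0.31). Icam1 rose 2.95-fold, Icam2 2.54-fold, Mcam 3.62-fold and Podxl 2.97-fold, while Alcam (-1.51) and Jam3 (-0.50) fell. EC library 0 was the lowest EC library for Sele, Selp and Vcam1, and EC library 2 the highest for Sele and Selp.

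Coagulation and fibrinolysis genes rose in 15 of 22 and fell in 6 (68.2% and 27.3%, median 1.06), beside 26.1% and 30.1% of all rows. The share that fell was thus near that of all rows. Plat, tissue plasminogen activator, had 14632, 21968 and 16278 in the ECs and 1737, 2355 and 2430.3 in the lungs (3.01 ± 0.19). Procr, the endothelial receptor for protein C, had 3482, 5614 and 4134 against 274, 266 and 284 (3.97 ± 0.17), while Proc, protein C itself, was at 1.14, 2.41 and 1.25 against 28.6, 51.1 and 12.3 (-3.43 ± 0.56). Tfpi2, a protease inhibitor, rose 22.2-fold and Plaur, the urokinase receptor, 9.56-fold. F2r, the thrombin receptor, was 3.92-fold lower and Gas6 1.83-fold lower.

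Of 30 vasoactive genes 14 rose and 10 fell (median 0.23), shares of 46.7% and 33.3% beside 26.1% and 30.1% of all rows. Edn1, endothelin-1, the constrictor peptide of endothelium, had 21094, 13696 and 19091 in the ECs and 1136, 1506 and 1446 in the lungs (3.71 ± 0.18), and its receptor Ednrb also rose. Ednra, the endothelin receptor of smooth muscle, went the other way, with 296, 228 and 262 against 3666, 1463 and 3623 (-3.36 ± 0.35). In the nitric oxide path Nos3 rose and the subunits of the nitric oxide receptor fell, Gucy1a3 with 824, 515 and 887 against 5138, 4730.3 and 5479 (-2.82 ± 0.20) and Gucy1b3 with 379, 227 and 412 against 2908, 2854 and 3148 (-3.17 ± 0.22). Pde5a, the phosphodiesterase that degrades their product cyclic GMP, was 6.05-fold lower and Agtr1a, the angiotensin II receptor, lower by a log2 difference of -3.32. The inducible enzymes Ptgs2, cyclooxygenase-2 (1953, 1802 and 3562 against 90.7, 86.1 and 68.3, 4.82 ± 0.27), and Nos2, inducible nitric oxide synthase (61.5, 67.5 and 122 against 1.59, 2.56 and 0.767, 4.99 ± 0.43), were the largest rises of the list.

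Angpt1, the ligand that perivascular cells supply to the endothelial receptor Tie2, had 190.1, 211 and 207 in the ECs and 2483, 2435 and 2292 in the lungs (-3.56 ± 0.09, adjusted p = 4.77e-06). Its receptor Tek, which encodes Tie2, rose 1.73-fold, the co-receptor gene Tie1 3.32-fold, the Tie2 phosphatase gene Ptprb 2.02-fold and the antagonist gene Angpt2 1.70-fold. Angpt2 lost its call with equal totals (0.53), without EC library 1 and without EC library 2 (adjusted p = 0.065 to 0.101). Pdgfb, which recruits pericytes, had 4229.7, 4301 and 3464 against 2836, 2518 and 2782 and rose (0.55 ± 0.11; 0.26 and not called after quantile normalization), while its receptor Pdgfrb fell, with 14, 7.52 and 5.72 against 85.9, 40.2 and 62.1 (-2.68 ± 0.43). The Pdgfrb row is uncertain, because another row of the table joins Pdgfrb with its neighbour Csf1r. Pdgfa fell (-1.84) and Pdgfd rose (1.25). Of 19 VEGF pathway and tip cell genes 14 rose, with the receptors Flt4, Flt1 (1.90) and Kdr (1.33) and the tip cell gene Esm1 (1.52) among them. The ligand Vegfa, which alveolar epithelium makes, was lower (26822, 22908 and 20958 against 45759.6, 35889 and 31717, -0.67 ± 0.18), a call lost without EC library 1, EC library 2 or lung library 0, at -0.66, -0.59 and -0.53.

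Of 15 Notch genes 10 rose and 2 fell (median 0.92). The endothelial ligand Dll4 had 7535, 9852 and 10182 in the ECs and 4269, 3278 and 3986 in the lungs (1.25 ± 0.15), and Dll1 2479.8, 2903 and 3995 against 359, 658 and 426 (2.72 ± 0.26). Of the receptors, Notch1 (1.61) and Notch4 (1.27) rose. Notch3, the receptor of smooth muscle and pericytes, had 2525, 1862 and 2052 against 4072, 2939.6 and 3726 and fell (-0.74 ± 0.16, not called with all 12 libraries in the fit, adjusted p = 0.0807), as did the target Heyl (-2.57 ± 0.21), while Notch2 gave -0.23 and was not called. The number of Notch genes that fell was 5 with equal totals, Notch2 among them, 4 after quantile normalization and 1 with all 12 libraries in the fit. BMP and TGF-beta genes had 9 of 33 higher and 12 lower (median 0.04), shares of 27.3% and 36.4% that lie near the 26.1% and 30.1% of all rows. The endothelial receptor Acvrl1 had 42236, 39579 and 35947 against 16675, 16334 and 17458 (1.22 ± 0.12), its co-receptor Eng, endoglin, 45548, 50824 and 42149 against 19341, 18863 and 18188 (1.29 ± 0.13), and Bmp2 rose 5.95-fold. The receptor Bmpr1a was 5.46-fold lower, with 616, 530.2 and 478 against 2987, 3097 and 2757. The extracellular antagonists were lower too, Bmper by -4.28 and Grem1 by -3.20, and so was Bmp5 (-2.66).

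**Figure D5:**
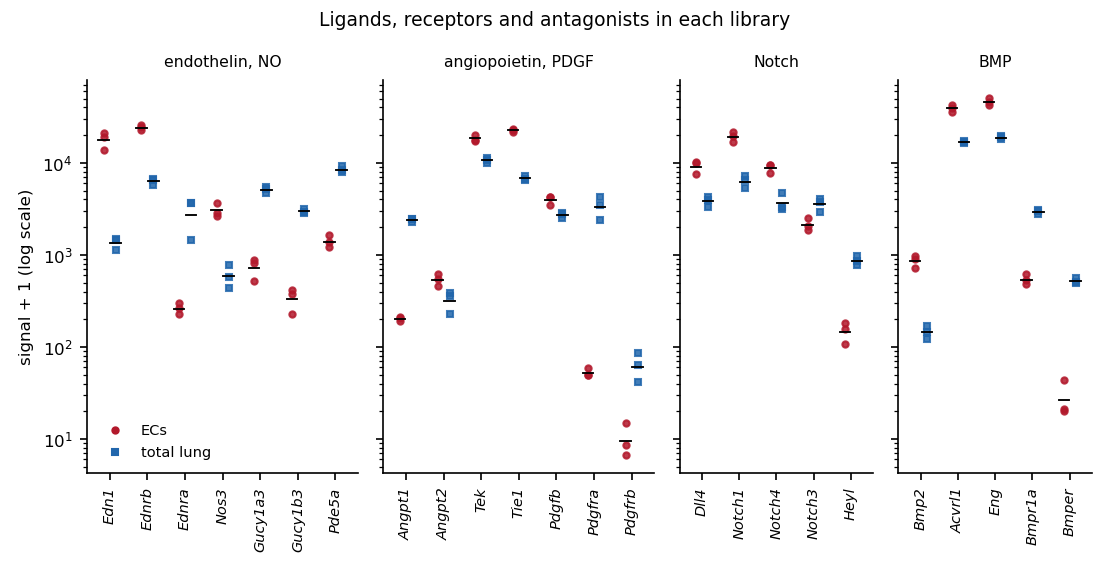
Signal + 1 (log scale) of ligands, receptors, enzymes and antagonists in each library, ECs as circles and total lung as squares, with geometric means as bars. Edn1, Nos3, Tie1, Notch1 and Acvrl1 lie higher in the ECs, and Ednra (-3.36), Angpt1 (-3.56), Pdgfra (-5.97) and Bmper (-4.28, log2 scale) lie lower.

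Junction and barrier genes had 14 of 25 higher and 3 lower (median 0.34), 9 higher and 5 lower once libraries were scaled to the same total, and 9 higher and 8 lower after quantile normalization. Esam rose 3.79-fold and Pecam1 2.77-fold. Among 15 claudins, which seal tight junctions, Cldn5 was the single one to rise, with 37594, 34219 and 36429.8 in the ECs and 8612, 10067 and 11694 in the lungs (1.84 ± 0.14), though 3 rose after quantile normalization. The 8 that fell included Cldn18 of the alveolar epithelium, with 6419, 4661 and 4540.0 against 21390.3, 22577 and 19602 (-2.04 ± 0.15), Cldn11 (-3.56) and Cldn1 (-3.22). Of the caveola genes Plvap, the diaphragm protein, rose 3.33-fold and Ehd4 2.50-fold. Cav1, the main caveolin, gave 37154, 35823 and 36674 against 28162, 30759.7 and 28736 and was not called (0.32 ± 0.13), with -0.12 after quantile normalization and a call as higher after median ratio scaling. By contrast Cav3, the caveolin of muscle, fell (-4.43 ± 0.64). Among ion channels of the vessel wall the mechanosensitive Piezo1 (1.16) and Piezo2 (1.37) and the potassium channel gene Kcnn4 (2.74) rose. Kcnk3, the potassium channel of pulmonary artery smooth muscle, had 106, 71.1 and 112 against 563, 469.6 and 666 and fell (-2.55 ± 0.23), as did Trpc6 (-2.03).

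Many genes of antigen presentation and interferon response were higher, and their counts stand beside the 26.1% of all rows that were higher. MHC class I pathway genes rose in 8 of 10 (median 1.02), and in 6 with equal totals. B2m was at 88962, 113979 and 101097 in the ECs and 45972, 41592 and 43469 in the lungs (1.21 ± 0.19). MHC class II genes rose in 5 of 9, with RT1-Db1 at 6049, 7781 and 5022 against 1897, 2097 and 2222 (1.58 ± 0.16), while the invariant chain gene Cd74 was not called (0.38 ± 0.18). B cells express class II genes too, and their markers rose in 9 of 9, but their part in the class II rise was not tested. Interferon-stimulated genes rose in 15 of 18 (median 0.78), in 12 with equal totals and in 11 without lung library 2. In 8 of the 18 every EC library lay above all 9 lung libraries of the table, which was true of 24.3% of all rows. Rsad2 was at 2295, 3386 and 2094 against 577, 319 and 446 (2.54 ± 0.25) and Gbp2 was 3.10-fold higher. Ifit1 varied widely among the ECs (2828, 8234 and 111, against 34.2, 23.9 and 74.4), and its call was lost when any of EC library 0, EC library 1, lung library 0 and lung library 1 was left out (3.8 to 4.99). MHC rows are of close relatives in a variable locus, so reads may have been shared between them.

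Growth and metabolic lists are given beside the 26.1% of all rows that were higher and the 30.1% that were lower. None of 30 mitosis genes rose and 1, Aurkb, fell, with 167, 172 and 89.9 in the ECs and 3679, 2695 and 481 in the lungs (-3.61 ± 0.72). These counts depended on the setting: 8 mitosis genes rose after quantile normalization and 1 without EC library 2, while 2 fell without EC library 0 or lung library 2, 3 with equal totals or with all 12 libraries in the fit, and 6 without lung library 1. The proliferation marker Mki67 gave 792, 759 and 514 against 850.1, 417 and 632 (0.15 ± 0.28). DNA replication genes had 10 of 25 higher (40%) and 4 lower (16%), led by Rfc4 (1.95 ± 0.18) and Gins2 (-2.09 ± 0.38), and 6 higher with equal totals but 16 after quantile normalization. The cell cycle inhibitor Cdkn1a, which encodes p21, had 6219.9, 8630.5 and 5724 against 807, 691 and 869.7 (3.10 ± 0.17), and Btg2 rose 8.27-fold. Glycolysis genes rose in 11 of 20, led by the lactate transporter Slc16a3 (2.72 ± 0.22), and in 7 with equal totals. Oxidative phosphorylation genes fell in 11 of 27 (median -0.21), such as Ndufa2 (-0.70) and Ndufs3 (-0.66). That count was 18 with equal totals, 17 after quantile normalization and 7 with all 12 libraries in the fit, and 6, 5, 7 and 7 without EC library 0, EC library 1, lung library 1 and lung library 2. Cholesterol and fatty acid synthesis genes fell in 12 of 22, led by Scd, stearoyl-CoA desaturase, with 2054, 2335 and 1482 against 12593, 8705 and 8154 (-2.32 ± 0.22). Ribosomal protein genes rose in 18 of 59 (30.5%, near the share of all rows) and none fell. The number that rose was 3 with equal totals or after quantile normalization, 11, 7 and 10 without EC library 2, lung library 0 and lung library 1, and 23 without lung library 2. Their differences were -0.05 to 1.65.

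The aryl hydrocarbon receptor (AhR), the gene at the centre of the wider study, is a ligand-activated transcription factor that switches on xenobiotic enzymes. Ahr itself was not called (0.43 ± 0.21, adjusted p = 0.125), and the EC and lung libraries overlapped, while without lung library 0, the highest of the lungs, it was called higher (0.65). Of its 8 tested pathway genes 2 rose and 3 fell (25% and 37.5%, near the 26.1% and 30.1% of all rows). Cyp1a1, the cytochrome P450 most used as an AhR target, had 3004, 1389 and 1123 in the ECs and 476, 39.2 and 298 in the lungs (3.23 ± 0.88), a call lost without EC library 0 (2.80). Tiparp, an ADP-ribosyltransferase that restrains AhR, had 6736, 6692 and 7532 against 761, 1146 and 868 (2.93 ± 0.15). Cyp1b1 (-0.98 ± 0.20), Nqo1 (-1.11 ± 0.12) and Aldh3a1 (-2.13 ± 0.30) fell, and the repressor Ahrr was low in both groups (-0.46 ± 0.63).

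The EC libraries resembled each other more than they resembled total lung: log2 signals correlated over genes at 0.977 to 0.988 among the ECs, 0.970 to 0.981 among the lungs and 0.891 to 0.905 between groups. These are correlations across genes, which are not independent replicates. The genes that varied most among the ECs were RT1-M6-1 (0, 109 and 115), Ndufa1 (1.14, 2.41 and 231), Vsig4, a macrophage receptor (619, 735 and 6.24), Ifit1 and Dgcr2 (71.7, 1.21 and 83.6). For Ndufa1 the lungs were even (222, 226 and 233) and a pair of EC libraries were near 0, so the row was not called although its difference was -4.26. It was called without EC library 2 (-6.40), as was RT1-M6-1 without EC library 0 (5.07). Vsig4 was low in EC library 2 and in lung library 2 (523, 887 and 51.4 over the lungs) and was not called.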

How the data were processed

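Per the labels' protocols, Trizol and the PureLink RNA Mini kit with DNase treatment gave the RNA, which was sequenced on an Illumina instrument. The submitters' processing notes name FastQC and the rn6 build. Aligner, counting tool and read layout: not given in the sources used here. The authors deposited 1 table of signal values per gene, with no header that names a unit. From the values, 79.8% to 81.7% of those above 0 lay within 0.05 of a whole multiple of 1 step per library, so the deposited signal was read as estimated counts over 1 factor for each library, and it was kept as deposited. Values under 1e-06 were set to 0. Counts were not recovered for all genes, so no count test was run. Table columns end in 0 to 2 and sample titles in 1 to 3, so columns were tied to groups and not to single samples.

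The log2(signal + 1) of rows with a mean of at least 1 over the 6 libraries was compared by limma (version 3.58.1, under R 4.3.3; trended moderated test, two-sided, Benjamini-Hochberg over all rows). A fold is on that scale and understates the change of low genes. The members and the gene lists were chosen with earlier results of these data known. Lists hold 1043 genes, of which 969 matched a row by symbol and 8 by a synonym. The table joins some neighbouring genes in 1046 rows, and the 61 list members in these were left out of list counts. Genes are named if they are among the 15 largest called changes in each direction (mean of at least 50 in the higher group, no library of the other group at 0, no overlap, and a symbol that is 1 gene and not a provisional locus or mitochondrial name), the 5 highest listed at 0 in the other group, up to 5 members of a list in each direction, any member of a list of up to 17, Ahr, or the 5 that vary most among the ECs. The members named as not called, Fosl1, and the genes named for a promoter match were chosen after their values were seen. Promoter windows come from the RefSeq table for GRCr8, which is not the build of the files, and their coordinates are those of GRCr8. Figures were drawn with Python 3.11.15. Alternatives were other filters (none, a mean of 5), pseudocounts (0.1, 10), 3 scalings, no trend, all 12 libraries in the fit, a block for the replicate number, and leaving out 1 library at a time.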

Additional observations from a re-analysis of the deposited data

How the results depend on the processing

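Called rows numbered 8539, against 8533 with no filter, 8393 with a mean of at least 5, 8467 and 8494 with pseudocounts of 0.1 and 10, 8207 after quantile normalization, 8832 with equal totals, 8561 after median ratio scaling, 8145 without trend and 8776 with all 12 libraries fitted. Leaving out 1 library gave 7239 to 8069 called rows, 3362 to 3806 higher and 3814 to 4281 lower. Equal totals put 31.9% of the calls higher and quantile normalization 50.4% (4140 higher and 4067 lower). All 230 named genes kept their direction and their side of the threshold with no filter, a mean of 5 and a pseudocount of 0.1. The call of Angpt2, Cyp1a1, Ifit1, Notch3, Npy, Pdgfb, Thy1 or Vegfa was lost under at least 1 other alternative, with adjusted p-values up to 0.108 (limma). Only genes that were not called changed sign. After quantile normalization the differences were 0.18 for Ahrr, -0.12 for Cav1, -0.28 for Cd34 and -0.16 for Hsp90ab1, and with equal totals -0.17 for Cd34 and -0.082 for Mki67. Over the alternatives that left out 1 library, Ahrr ranged from -0.80 to 0.14, Cd34 from -0.11 to 0.16, Mki67 from -0.12 to 0.40 and Vsig4 from -2.20 to 1.22. The cause of these shifts was not tested.

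The groups share replicate numbers in the column names, and same-numbered EC and lung libraries deviated together by correlations of 0.005, 0.060 and 0.110. EC libraries 1 and 2 correlated best with the lung library of their own number, and EC library 0 with lung library 1 (0.081). The labels name no pairs, so the numbers were not taken as pairs. A fit with the replicate block called 8559 rows, 4014 higher and 4545 lower, with 28 ribosomal protein genes and 5 basement membrane genes higher.

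At about 20040000 to 27630000 reads per library, genes with a signal near 1 rest on about 1 read, and a value of 0 in 3 libraries does not show that a gene is absent.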

Other observations

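The shares called in 3 further lists are given beside the 26.1% of all rows that were higher and the 30.1% that were lower. Of 11 tested targets of NRF2, the transcription factor of oxidative stress, 4 rose and 4 fell (36.4% each, median -0.14). The cystine transporter gene Slc7a11 had signals of 49.0, 57.8 and 97.4 in the ECs and 25.5, 11.9 and 20.7 in the lungs (1.76 ± 0.39), and Gclc, a glutathione synthesis enzyme, 1298, 1387 and 1378 against 761, 829 and 655 (0.86 ± 0.11). Of 28 YAP target and cytoskeletal genes 9 rose and 7 fell (32.1% and 25%, near the shares of all rows), and after quantile normalization 5 rose and 15 fell. Cyr61, a matricellular protein and YAP target, had 13245, 10069 and 9764 against 926, 726 and 2117 (3.28 ± 0.37), while Ankrd1, a YAP target as well, had 84.3, 55.4 and 117 against 392, 395 and 1903 (-3.01 ± 0.62). Lung library 2 was the highest lung for both, without overlap between groups. Of 16 cell cycle inhibitor and p53 target genes 8 rose and 4 fell (50% and 25%), and with equal totals 5 rose and 7 fell. Gadd45a, a DNA damage response gene, had 3322, 4742 and 3718 against 792, 1010 and 929.9 (2.10 ± 0.15), while the inhibitor gene Cdkn2c fell (-1.81 ± 0.22).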
